A study of Homo sapiens with 4 samples.

Results

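RNA-seq of T24 cells, a line established from a human bladder carcinoma, was used to follow 10 genes that encode the core of Polycomb repressive complex 1 (PRC1). They were RING1 and RNF2 (also called Ring1b), the 6 PCGF genes (PCGF1, PCGF2, PCGF3, BMI1, PCGF5 and PCGF6), and RYBP with its paralog YAF2. The genes were chosen by name from the 60623 genes of the deposited table, and all 10 were present and passed the filter on low counts. The 4 libraries came from 2 samples of control T24 cells and 2 samples of CBX7-overexpressing T24 cells, grown in serum-supplemented RPMI. CBX7 was introduced as the full-length gene in a pCDH-3xFLAG vector. Which vector the control cells carried, and whether the stable line was a clone or a pool, was not given in the sources used here. Nothing in the labels says that the replicates were separate cultures, so the p-values measure the spread between these samples, which may be technical. The libraries held whole cell populations, in which fewer expressing cells and less RNA per cell cannot be told apart.

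PRC1 attaches ubiquitin to histone H2A at lysine K119, and this mark accompanies the silencing of Polycomb target genes. The ubiquitin ligase is a RING protein, which works as a pair with a PCGF protein. Canonical complexes hold PCGF2 or BMI1 together with a PHC protein and a CBX protein such as CBX7, which binds trimethylated histone H3. Variant complexes hold RYBP or YAF2, which bind RING proteins at the site that CBX proteins use, and they can be built on any of the PCGF proteins. The comparison asks how much transcript of each possible partner was present beside the introduced CBX7, and whether any of it differed between the groups.

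RNF2 is the member that the study itself silenced and measured by PCR, so its designed oligonucleotides are shown here. Their positions tell which annotated RNF2 transcripts those assays read. In the siRNA the capitals mark the overhang that is not part of the target, and in the amplicon the capitals mark the primer sites.

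RNF2 forward primer: caaacggaactcaaccattaagc

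RNF2 reverse primer: ccacttctaagggctgtgatg

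RNF2 siRNA sense strand: cuagagcuugauaauaacaTT

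RNF2 amplicon: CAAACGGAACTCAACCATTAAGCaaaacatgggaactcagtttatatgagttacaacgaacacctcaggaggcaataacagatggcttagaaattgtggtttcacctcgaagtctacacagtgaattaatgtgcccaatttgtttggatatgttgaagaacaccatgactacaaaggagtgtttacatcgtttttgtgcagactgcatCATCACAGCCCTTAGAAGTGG

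RNF2 lies on the plus strand of chromosome 1 from 185045364 to 185102608 (GRCh38, GENCODE release 29), which lists 4 transcripts for it. The amplicon of 229 bases is read from the longest of them (3606 bases), positions 308 to 536. Its forward primer lies in exon 2 (chr1:185087573-185087595) and its reverse primer in exon 3 (chr1:185091719-185091739), both within the coding sequence, and both match all 4 RNF2 transcripts. The siRNA target lies in coding exon 5 of that transcript (chr1:185098220-185098238) and is present in 3 of the 4 transcripts, the exception being a retained-intron transcript of 631 bases. Each of these oligonucleotides matched RNF2 and no other gene among the GENCODE transcripts. Against RING1, the closest paralog, the best alignments without gaps held 10 mismatches for the forward primer, 6 for the reverse primer and 6 for the siRNA. The PCR product therefore covers all 4 annotated transcripts. Which transcripts the deposited RNF2 counts cover was not given in the sources used here. Neither the product nor the counts, which are 1 value per gene and library, separate the coding forms from each other.

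The libraries held between 20800910 and 25135488 expected counts, and the members had between 241 and 3081 counts each, for which counting error alone gives a coefficient of variation of 1.80% to 6.44%. CBX7 itself rose with a log2 fold change of 7.35 (SE 0.18, adjusted p = 0.000584 in edgeR) and was high in both CBX7 libraries and low in both control libraries, as labelled. The keratins KRT7, KRT8 and KRT18 stood between 853 and 1465 TPM (a transcript level scaled by length and by the library). Of 11 urothelial markers, 9 were under 1 TPM in every library, among them KRT5 at 0 throughout, and the other two were PPARG and FOXA1. The epithelial adhesion gene CDH1 was at most 0.03 TPM, while the mesenchymal marker VIM stood between 2206 and 2757 TPM. All 3 endothelial markers and 3 of 4 leukocyte markers were under 1 TPM, the exception being CD14 at 0.79 to 1.64 TPM. KRT19 stood at 6.64 to 17.3 TPM and EPCAM at 0.58 to 1.78 TPM. The summed epithelial list ran from 3151 to 3248 TPM in control and from 3351 to 3730 TPM in CBX7 libraries. The summed mesenchymal list fell outside its control range of 3338 to 3366 TPM at 2499 and 2603 TPM. VIM and FN1 made up most of that sum. The groups overlapped for CDH2 (50.2 and 56.5 TPM in control, 34.1 and 52.8 TPM in CBX7 libraries) and ZEB1 (9.05 and 10.89 TPM, then 4.62 and 10.91 TPM). The part of these marker differences in the values below was not tested. CBX7 replicate 1 stood apart from the other libraries. Over 11077 well-counted genes (a mean of 100 counts or more), the ratio of the replicate 1 libraries fell with gene length (Spearman -0.62), against 0.04 for the replicate 2 libraries. Values are also given after a correction that removes, library by library, the fitted dependence of counts on deposited gene length and GC.

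None of the 10 members passed the test between CBX7-overexpressing and control T24 cells. In edgeR's quasi-likelihood test 0 of 10 had an adjusted p under 0.05, where 0.0202% of the 14862 genes tested did. The unadjusted p was under 0.05 in 0 of 10 members and in 4.74% of all genes, and DESeq2's Wald test gave 0 at either threshold. The median log2 fold change of the members was -0.00019 and that of all genes tested was 0.0017. The fitted log2 fold changes ran from -0.20 for PCGF5 to 0.29 for RING1. The smallest unadjusted p among the members was 0.148 (RING1, edgeR), and the adjusted p ran from 0.951 to 0.995. Without CBX7 replicate 2, where CBX7 replicate 1 alone stood for its group, 4 of 10 members were called (PCGF5 at -0.53, RYBP at -0.34, PCGF1 at 0.38 and RING1 at 0.48), beside 36.8% of all genes. The intervals of these differences set how much could have gone undetected. On the log2 scale the narrowest 95% interval was that of PCGF6, which ran from a fold of 0.833 to 1.29. The widest on that scale, that of PCGF5, ran from 0.595 to 1.27. No member's interval reached a fold of 2 or its inverse, as the plot of fitted fold changes shows.

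**Figure D1:**
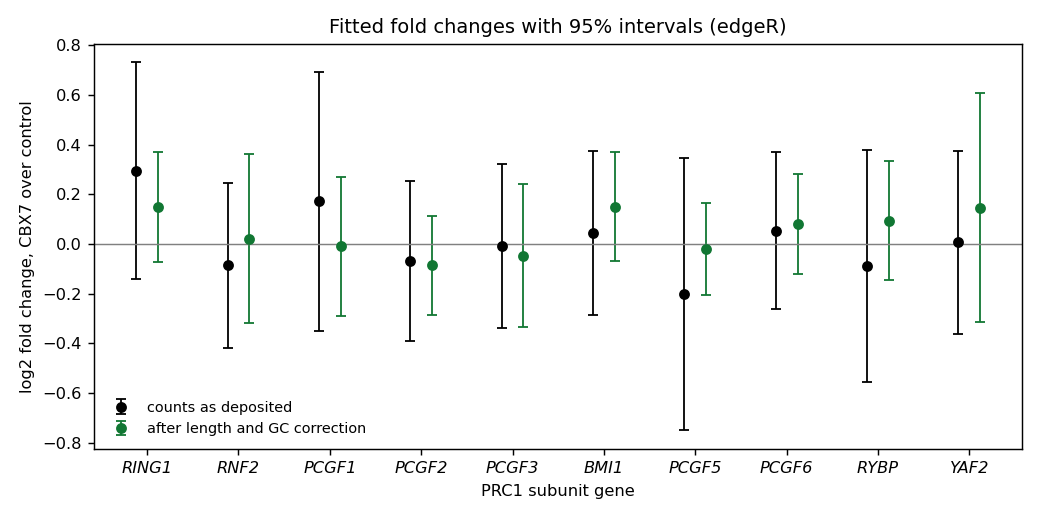
Fitted log2 fold change (CBX7 over control, vertical axis) of each member with its 95% interval from edgeR, for the counts as deposited (black) and after the length and GC correction (green). All 20 intervals cover 0, with estimates from -0.20 to 0.29 as deposited and from -0.09 to 0.15 after the correction.

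The RING genes encode the ligase itself. RING1 (chromosome 6 from 33208495 to 33212722, plus strand) had 22.4 and 21.7 CPM (counts scaled by the TMM library size) in control replicates 1 and 2 and 30.7 and 23.3 CPM in CBX7 replicates 1 and 2. Both CBX7 libraries were above both control libraries, most of all CBX7 replicate 1. The log2 fold change of RING1 was 0.29 (SE 0.18, 95% interval -0.14 to 0.73, adjusted p = 0.951 in edgeR), and after the correction it was 0.15. Without CBX7 replicate 1 it was 0.09. RNF2 had 22.2 and 21.0 CPM in control and 20.6 and 20.1 CPM in CBX7 libraries. The groups did not overlap, but the gap between them was smaller than the gap between the control libraries. Its log2 fold change was -0.09 (95% interval -0.42 to 0.25), and after the correction it was 0.02, the opposite sign.

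On the TPM scale, which allows different genes to be compared, RING1 was the more abundant of the RING transcripts in all 4 libraries. RING1 stood at 18.9 and 19.2 TPM in control and 21.8 and 20.9 TPM in CBX7 libraries. RNF2 stood at 12.8 and 14.3 TPM in control and 9.62 and 11.0 TPM in CBX7 libraries. The ratio of RNF2 to RING1 was 0.677 and 0.745 in control libraries, above the 0.440 and 0.524 of the CBX7 libraries (exact two-sided permutation test p = 0.333, the smallest that 2 against 2 libraries can give). The direction of this ratio was the same with counts per kilobase of the deposited length (0.501 ± 0.00841 in control, 0.392 ± 0.0686 with CBX7, SD, n = 2 each). After the length and GC correction the groups overlapped, at 0.463 ± 0.0448 and 0.423 ± 0.0498. The summed RING level of the CBX7 libraries was within or just under the control values, at 31.7 and 33.4 TPM in control and 31.5 and 31.9 TPM in CBX7 libraries.

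The PCGF genes decide which kind of PRC1 complex a RING protein enters. PCGF2 and BMI1, the pair found in canonical complexes with CBX7, were expressed at nearly equal levels. PCGF2 (chromosome 17 from 38733897 to 38749817, minus strand) had 43.1 and 42.1 CPM in control and 41.9 and 39.3 CPM in CBX7 libraries. The CBX7 libraries of PCGF2 lay just below the control libraries, with a log2 fold change of -0.07 (95% interval -0.39 to 0.25) as deposited and -0.09 after the correction. BMI1 (chromosome 10 from 22321211 to 22331484, plus strand) had 52.8 and 54.6 CPM in control and 52.9 and 58.0 CPM in CBX7 libraries. The groups of BMI1 overlapped, and its log2 fold change was 0.05 (95% interval -0.28 to 0.38), or 0.15 after the correction, where the groups no longer overlapped. The ratio of BMI1 to PCGF2 in TPM was 0.979 and 0.916 in control and 0.874 and 1.15 in CBX7 libraries, so the control values lay between the CBX7 values. After the correction, per kilobase, the ratio was higher in the CBX7 libraries without overlap, at 1.06 and 1.03 in control and 1.27 and 1.19 in CBX7 libraries (exact two-sided permutation test p = 0.333, the smallest possible).

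Both canonical PCGF genes share exons with other genes, and whether the counting used strand was not given in the sources used here. CISD3, on the opposite strand, shares up to 1148 exon bases with PCGF2 and had 1155 and 899.6 counts in control and 1584 and 917.8 counts in CBX7 libraries. The read-through gene COMMD3-BMI1 shares exon bases with BMI1 on the same strand and had 18.8 to 41.9 counts, few beside the 1146 to 1295 counts of BMI1. PCGF3 is overlapped by a pair of antisense genes, of which one had no counts and the other, AC139887.2, 28 to 51 counts. The part of these neighbours in the values was not tested.

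The remaining PCGF genes belong to variant complexes. PCGF1, the partner of KDM2B and BCOR, had 13.6 and 11.5 CPM in control and 16.4 and 11.9 CPM in CBX7 libraries, and the higher value was that of replicate 1 in both groups. Its log2 fold change was 0.17 (95% interval -0.35 to 0.69), or -0.0094 after the correction. PCGF3 had 56.0 and 59.4 CPM in control and 55.2 and 59.6 CPM in CBX7 libraries. The replicates of PCGF3 differed more than the groups did, and its log2 fold change was -0.0077 (95% interval -0.34 to 0.32). PCGF6, the partner of MGA and E2F6, had 42.6 and 40.7 CPM in control and 42.9 and 43.6 CPM in CBX7 libraries. The groups of PCGF6 did not overlap, by a gap of less than 1 CPM between the nearest libraries, and its log2 fold change was 0.05 (95% interval -0.26 to 0.37).

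PCGF5 had the lowest fitted value of the members, and it rested on a single library. PCGF5 (chromosome 10 from 91163012 to 91284331, plus strand) pairs with AUTS2 or FBRS proteins, as PCGF3 does. It had 125.9 and 137.7 CPM in control and 91.1 and 137.9 CPM in CBX7 libraries. CBX7 replicate 1 was far below all other libraries, while CBX7 replicate 2 was level with control replicate 2. The log2 fold change of -0.20 (SE 0.22, adjusted p = 0.951 in edgeR) became -0.02 after the correction, with corrected values of 124.9 and 119.7 CPM in control and 122.5 and 118.8 CPM in CBX7 libraries. Without CBX7 replicate 1 the fitted value was 0.07.

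RYBP and YAF2 bind RING proteins in the variant complexes. RYBP (chromosome 3 from 72371825 to 72446621, minus strand), which like PCGF5 has a long transcript (deposited length 7215 bases), had 30.7 and 32.0 CPM in control and 24.8 and 34.2 CPM in CBX7 libraries. The control values of RYBP lay between the CBX7 values, with replicate 1 low. Its log2 fold change was -0.09 (95% interval -0.55 to 0.38), and after the correction it was 0.09. YAF2 had 14.4 and 13.9 CPM in control and 14.9 and 13.4 CPM in CBX7 libraries. The groups of YAF2 overlapped, with a log2 fold change of 0.0073 (95% interval -0.36 to 0.38), which was 0.15 after the correction (95% interval -0.31 to 0.61). The correction used the deposited length of YAF2, 4156 bases, while the length implied by its counts and TPM, described below, was 1680 to 2314 bases.

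Counted over the members, the groups did not overlap in 4 of 10 on the CPM scale, where 30.2% of all genes tested did not overlap. RING1 and PCGF6 were higher and RNF2 and PCGF2 lower in the CBX7 libraries. After the correction it was again 4 of 10, now RING1, BMI1 and PCGF6 higher and PCGF2 lower, where 37.6% of all genes did not overlap. With 10 members, 4 is close to either share over all genes, and nothing is read from the members named. Both scales use the same reads. In TPM the groups of PCGF6 overlapped, with a log2 ratio of the means of -0.049. In deposited TPM, RNF2, PCGF2, PCGF5 and YAF2 were lower without overlap, 4 of 10 where 17.4% of all genes were, and RING1 was higher, 1 of 10 where 12.2% were. The TPM of all genes tested shifted by a median of -0.22 on the log2 scale between the replicate 1 libraries and by 0.01 between the replicate 2 libraries.

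**Figure D2:**
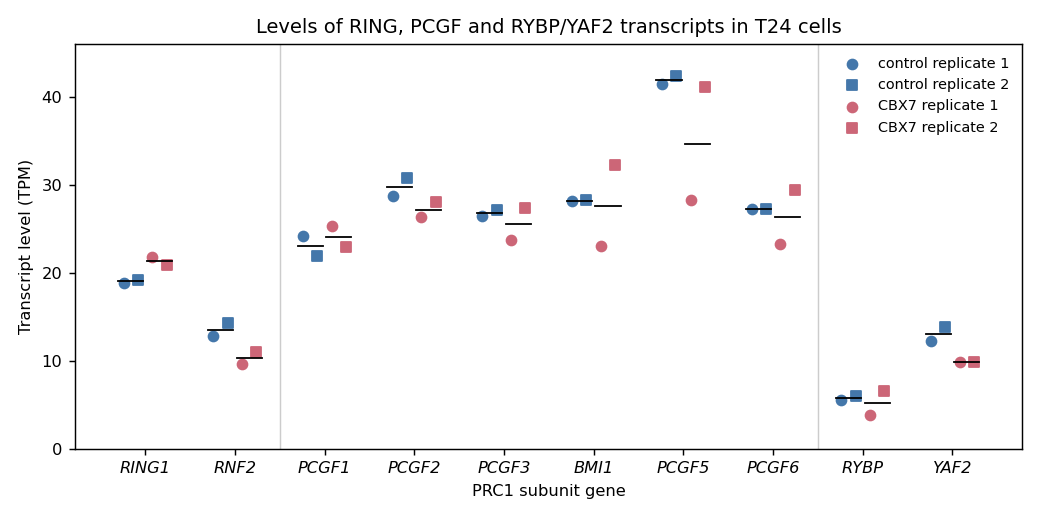
Deposited level (TPM, vertical axis) of the 10 members in each library, with bars at the group means (n = 2). PCGF5 is the highest and RYBP the lowest member in all 4 libraries, and CBX7 replicate 1 is the lowest library for 8 of 10 members, the exceptions being RING1 and PCGF1. The order holds for TPM and changes with counts per kilobase.

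The plot of levels by library shows the members' order in TPM, which was identical in both control libraries and depended on the transcript length used. PCGF5 led at 41.9 ± 0.672 TPM, followed by PCGF2 at 29.8 ± 1.47, BMI1 at 28.2 ± 0.0707, PCGF6 at 27.3 ± 0.0212 and PCGF3 at 26.8 ± 0.502 TPM (SD, n = 2). The middle of this order was close: PCGF2 and BMI1 differed by about the SD of PCGF2, and in CBX7 replicate 1 PCGF1 stood ahead of PCGF3, PCGF6 and BMI1. Below them in control cells came PCGF1 at 23.1 ± 1.59 and RING1 at 19.0 ± 0.198 TPM. RNF2 at 13.5 ± 1.05 and YAF2 at 13.0 ± 1.15 TPM had overlapping ranges, with RNF2 a little above YAF2 within each control library and below it in CBX7 replicate 1. RYBP closed the order at 5.54 and 6.05 TPM in control and 3.82 and 6.55 TPM in CBX7 libraries. Among all genes tested, PCGF5 lay at percentile 77.8 of the control levels and RYBP at percentile 35.2.

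Both ends of this order changed when counts were divided by a fixed length. Per kilobase of the deposited length PCGF3 led at 34.95 ± 1.46 CPM, followed by PCGF6 at 18.6 ± 0.587 and PCGF5 at 18.4 ± 1.16 CPM in control cells, and PCGF3 led in all 4 libraries, also after the correction. The deposited length of PCGF3 is 1652 bases and its longest annotated transcript has 5685. Per kilobase of the longest annotated transcript, PCGF6 and PCGF5 led at 18.7 ± 0.588 and 18.4 ± 1.16 CPM and PCGF3 stood at 10.2 ± 0.424 CPM. YAF2, rather than RYBP, was then the lowest member in control cells on each of these scales. The ratio of RYBP to YAF2 was 0.453 and 0.437 in TPM in control libraries and 0.389 and 0.665 in CBX7 libraries, and its control mean of 0.445 became 1.28 per kilobase, 1.25 after the correction and 1.57 by the longest transcript. RNF2 was above YAF2 in all 4 libraries per kilobase of deposited length, at 6.34 ± 0.250 against 3.40 ± 0.0875 CPM in control cells. RING1 stayed above RNF2 in all 4 libraries on every one of these scales.

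The makeup of the PCGF pool likewise depended on the scale. Of the summed TPM of the 6 PCGF genes, PCGF5 took 23.5% and 23.9% in control and 18.8% and 22.7% in CBX7 libraries, lower without overlap. In TPM the other 5 genes took between 12.3% and 17.8% each in every library. Per kilobase of deposited length PCGF3 took 29.6% and 31.2% in control and 29.9% and 30.8% in CBX7 libraries, more than any other PCGF gene, and after the correction it took between 27.7% and 32.5%. By the longest transcript PCGF3 took between 11.8% and 12.4%. The share of PCGF6 was higher in the CBX7 libraries without overlap, at 15.52% and 16.27% against 15.47% and 15.35%, a difference of 0.486 percentage points between the means, and its groups overlapped by the longest transcript (22.8% and 21.7% against 24.1% and 22.8%). The share of BMI1 overlapped in TPM and per kilobase of deposited length, but was higher with CBX7 without overlap after the correction (12.9% and 12.7% against 15.1% and 13.3%) and by the longest transcript (18.4% and 18.9% against 19.3% and 19.7%). The share of PCGF2 was lower without overlap only after the correction, at 12.2% and 12.3% against 11.8% and 11.1%. No share could pass the exact permutation test, whose smallest p was 0.333. The share of PCGF5 overlapped between the groups with counts per kilobase (16.04 ± 0.943% in control and 13.9 ± 3.59% with CBX7) and after the correction (15.0 ± 0.478% and 14.7 ± 0.595%). Its log2 change in TPM, -0.20, was -0.06 without CBX7 replicate 1 and -0.33 without CBX7 replicate 2.

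Set beside its partners, CBX7 went from below every member to above every member. In control cells CBX7 stood at 4.98 and 3.73 TPM, and there were 0.157 and 0.112 CBX7 transcripts for each RING transcript (RING1 plus RNF2). In CBX7-overexpressing cells it stood at 610.1 and 607.2 TPM, or 19.4 and 19.1 per RING transcript. Against PCGF2 plus BMI1, its canonical PCGF partners, the ratio went from 0.0876 and 0.0632 to 12.4 and 10.1. The introduced gene and the cell's own CBX7 were counted together. RYBP plus YAF2, which use the same site on RING proteins, gave 0.562 and 0.596 transcripts per RING transcript in control and 0.434 and 0.515 in CBX7 libraries. That difference holds for TPM, where the log2 ratio of the group means of YAF2 was -0.41. In CPM the log2 fold changes of RYBP and YAF2 were -0.09 and 0.0073, and after the correction 0.09 and 0.15. All ratios of this paragraph are transcript ratios in TPM, and protein was not measured in these files.

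**Figure D3:**
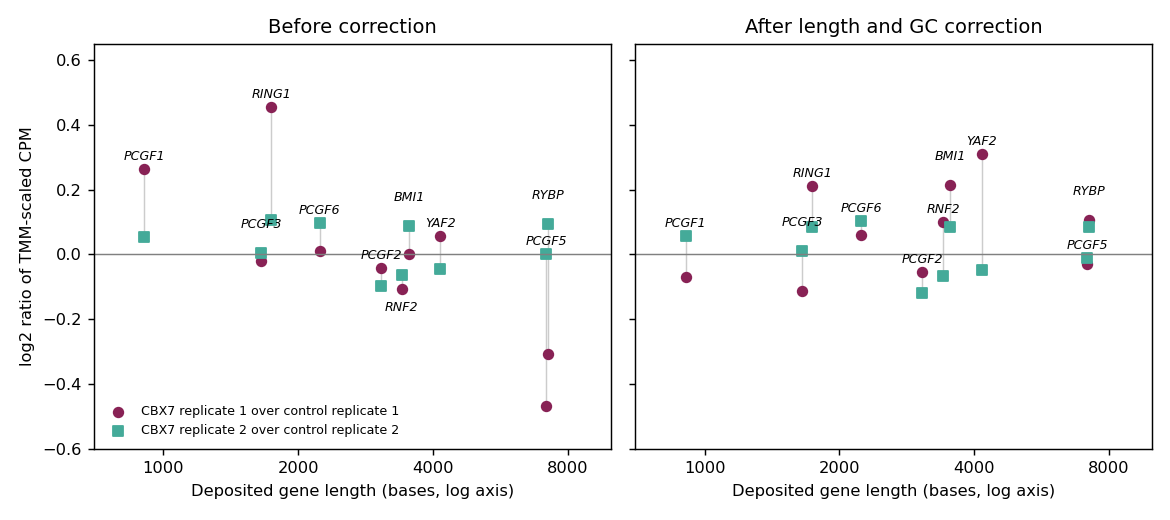
Log2 ratio of CBX7 to control CPM between libraries of the same number (vertical axis) against deposited gene length (bases, log axis), before (left) and after (right) the length and GC correction. The replicate 1 ratios (circles) run from -0.47 to 0.46 before the correction and from -0.11 to 0.31 after it, while the replicate 2 ratios (squares) stay between -0.12 and 0.11 in both panels.

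Ratios between libraries of the same number were unlike in replicates 1 and 2. Whether the numbers pair the samples is not stated. For the replicate 1 libraries, the log2 ratios of CBX7 to control ran from -0.47 for PCGF5 to 0.46 for RING1. For the replicate 2 libraries they ran from -0.10 for PCGF2 to 0.11 for RING1. The sign was shared by both ratios in 6 of 10 members. No share over all genes is given beside this count, and nothing is read from it. In replicate 1 PCGF5 and RYBP, the longest members, had ratios of -0.47 and -0.31, and PCGF1 and RING1, among the shortest, 0.26 and 0.46. YAF2 and BMI1, the next longest, were near 0 at 0.06 and 0.0020. Over the 10 members the Spearman correlation of the ratio with gene length was -0.64 in replicate 1 and -0.18 in replicate 2, given as a description of genes that share the same libraries. After the correction it was 0.55 and -0.20, and the highest replicate 1 ratio was then that of YAF2 at 0.31. PCGF3, whose deposited length of 1652 bases is short but whose longest annotated transcript has 5685, had ratios of -0.02 and 0.0043 and did not follow the short genes.

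RNF2 and YAF2 shared a further feature. A count divided by its TPM gives, up to a factor of each library, the transcript length that the deposited values assume for the gene, and this length moves when reads are assigned to longer or shorter transcripts of the gene. It was scaled so that the median gene of each library matched its deposited length. For RNF2 the implied length was 2779 and 2472 bases in control and 2891 and 3113 bases in CBX7 libraries. For YAF2 it was 1878 and 1680 bases in control and 2051 and 2314 bases in CBX7 libraries. In both genes the CBX7 libraries were above the control libraries, by 14.3% for RNF2 and 22.7% for YAF2 between the means. Leaving out each library gave 8.03% to 21.4% for RNF2, the lowest without control replicate 2, and 15.3% to 30.1% for YAF2, and scaling by summed counts gave 21.1% and 29.7%. Such a rise without overlap was found in 2 of 10 members, where 11.5% of 9462 genes with enough counts had one. A log2 change as large as that of RNF2 was found in 2.38% of those genes and one as large as that of YAF2 in 0.75%. RNF2 and YAF2 were singled out as the largest rises of the 10 members, on a measure added after seeing the data. These shares therefore do not measure how rare such a finding is among 10 genes.

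**Figure D4:**
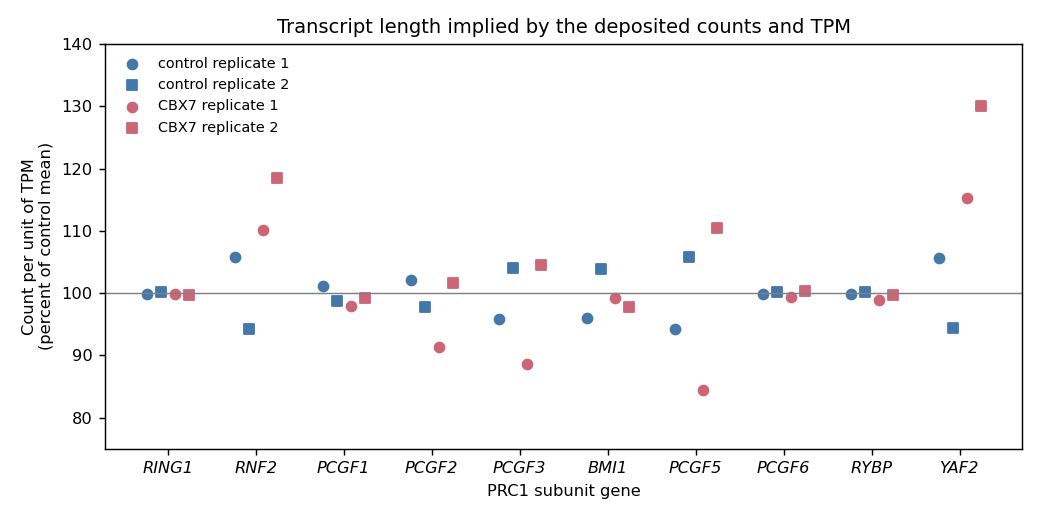
Transcript length implied by the deposited count and TPM of each member and library (vertical axis, percent of the control mean). RNF2 and YAF2 lie above the control mean in both CBX7 libraries, while RING1, PCGF6 and RYBP stay near it in all 4 libraries.

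The implied length separates the count of these genes from their TPM. In CPM, RNF2 and YAF2 had log2 fold changes of -0.09 and 0.0073, and in TPM the log2 ratios of their group means were -0.39 and -0.41. The scaled values are comparable between libraries and are not lengths of annotated transcripts, since in RING1, PCGF6 and RYBP they exceeded the longest annotated transcript (1752, 2230 and 7215 bases) in all 4 libraries. The siRNA target and PCR primers shown above are present in both of the longest annotated coding transcripts of RNF2, of 1677 and 3606 bases. YAF2 has 19 annotated transcripts, and those that code for protein run from 269 to 5095 bases. How the authors assigned reads to transcripts was not given in the sources used here, and the transcripts themselves were not counted in the table. The measure was narrower in some of the other members. RYBP, with a single annotated transcript, varied from 8773 to 8886 bases, RING1 from 1893 to 1901 and PCGF6 from 2486 to 2512. PCGF2 varied from 2143 to 2397 bases, PCGF3 from 3135 to 3698 and BMI1 from 3001 to 3247, with overlapping groups. In RING1 and RYBP the CBX7 libraries were lower without overlap, 2 of 10 members where 18.1% of genes were. The implied length of RING1 fell by 0.233% and that of RYBP fell by 0.721%. PCGF5 followed the replicate rather than the group, at 4855 and 5452 bases in control and 4350 and 5696 bases in CBX7 libraries.

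Of 43 further genes of PRC1 complexes and of H2AK119 ubiquitin, 42 could be tested, and CBX7 was the only one past an adjusted p of 0.05 (edgeR). AUTS2, a PCGF3 and PCGF5 partner, had too few counts in all 4 libraries. The unadjusted p was under 0.05 for 3 of 42, all higher in the CBX7 libraries, beside 4.74% of all genes tested, of which 509 were higher and 196 lower. They were CBX7, CBX2 and FBRSL1, of which CBX2 is named after its values were seen. The groups did not overlap in 13 of the 42 genes, beside 30.2% of all genes. The plot of fold changes by gene list sets these genes beside the 10 members.

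**Figure D5:**
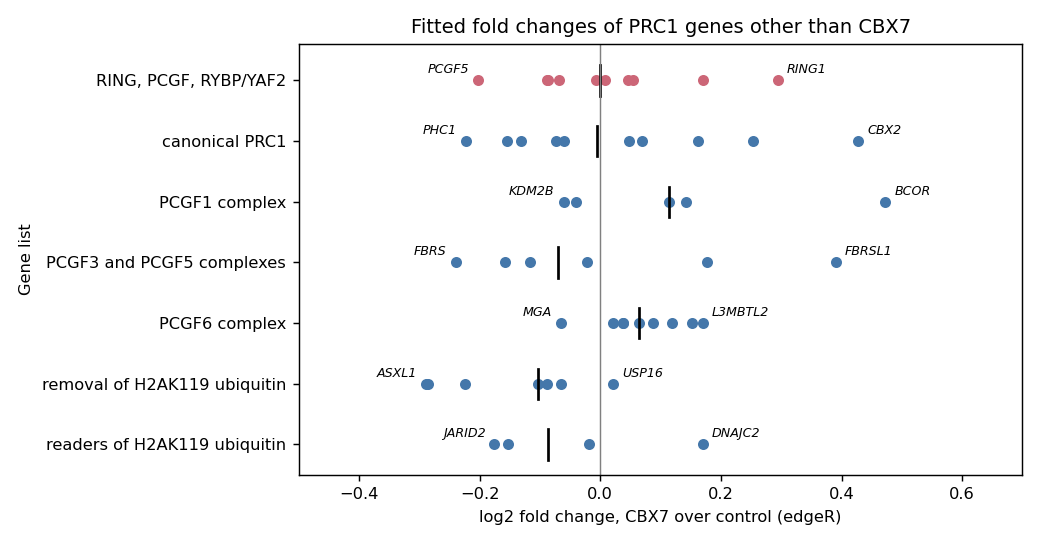
Fitted log2 fold change (CBX7 over control, horizontal axis, edgeR) of each tested gene by list, with the members in red, the other lists in blue and black bars at the medians. CBX7 at 7.35 is not drawn, and the other genes lie between -0.29 and 0.47.

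Canonical PRC1 partners were spread around 0, with a median log2 fold change of -0.0057 over 10 genes without CBX7, or 0.07 after the correction. CBX2, another chromobox reader of trimethylated histone H3, had 20.0 and 23.0 CPM in control and 30.02 and 27.7 CPM in CBX7 libraries. Both CBX7 libraries were above both control libraries, and the log2 fold change was 0.43 (SE 0.15, adjusted p = 0.935 in edgeR), or 0.46 after the correction. In the PCGF1 complex, where the median was 0.11 over 5 genes and 0.12 after the correction, the largest value was that of BCOR, the corepressor that binds PCGF1. BCOR had 45.97 and 52.7 CPM in control and 54.6 and 82.3 CPM in CBX7 libraries, with a log2 fold change of 0.47 (adjusted p = 0.951 in edgeR). After the correction it was 0.60 (adjusted p = 0.137 in edgeR), and BCOR passed the threshold with correction and replicate block together (0.60, adjusted p = 0.0211). It also passed without CBX7 replicate 1 (0.75), a fit in which CBX7 replicate 2, the library highest for BCOR, alone stood for its group and the control pair gave the spread. The higher value was that of CBX7 replicate 2, and CBX7 replicate 1 was close to control replicate 2. In the PCGF3 and PCGF5 complexes the median was -0.07 over 6 genes and -0.10 after the correction, and FBRSL1 stood highest, with 43.1 and 40.9 CPM in control, 58.3 and 51.8 CPM in CBX7 libraries and a log2 fold change of 0.39 (adjusted p = 0.943 in edgeR).

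The 9 genes of the PCGF6 complex lay between -0.06 and 0.17 with a median of 0.06, and the largest value was that of L3MBTL2, a chromatin-binding MBT protein. After the correction they lay between -0.02 and 0.40 with a median of 0.12. The largest was then HDAC2 (adjusted p = 0.818 in edgeR), a histone deacetylase named after its values were seen, which was 0.09 before the correction. The correction used the deposited length of HDAC2, 9737 bases, and whether that length fits its reads was not tested. The level of L3MBTL2 was 49.9 and 47.2 CPM in control and 57.9 and 51.3 CPM in CBX7 libraries. Enzymes that remove ubiquitin from H2AK119, with their cofactors, had a median of -0.10 over 7 genes, or -0.09 after the correction. ASXL1, the cofactor of the deubiquitinase BAP1, had 196.8 and 216.3 CPM in control and 144.4 and 193.8 CPM in CBX7 libraries, a log2 fold change of -0.29 that was -0.17 after the correction. Readers of the mark had a median of -0.09 over 4 genes, with JARID2, a cofactor of PRC2, at -0.18 (adjusted p = 0.951 in edgeR). After the correction the median of the readers turned to 0.11 and JARID2 was at -0.05, with DNAJC2, a reader that is also a chaperone cofactor, the largest at 0.20. Without CBX7 replicate 2, when CBX7 replicate 1 alone stood for its group, ASXL1 was at -0.52, JARID2 at -0.42 and DNAJC2 at 0.33. In the fit to deposited counts no list held a gene that was lower past either threshold.

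RING1 had the largest absolute log2 fold change of the members in the fit to all 4 libraries' deposited counts (BMI1 and YAF2 were level with it after the correction, in TPM YAF2, RNF2 and PCGF5 were larger, without CBX7 replicate 1 RYBP, BMI1, PCGF2 and RNF2 were larger, and without CBX7 replicate 2 PCGF5 was), and the genes most like it were sought among 51 members and listed genes that averaged 100 counts or more. The measure was the root mean square distance between log2 CPM profiles, each centred over the 4 libraries. The nearest were DNAJC2 at 0.0697, CBX8 at 0.0791 and CSNK2B at 0.0814. All 3 were, like RING1, highest in CBX7 replicate 1, which carried the trend with gene length.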

How the data were processed

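Total RNA of 2 control and 2 CBX7-overexpressing T24 samples was sequenced by the authors from randomly primed cDNA on an Illumina HiSeq instrument. The submitters' processing notes name cutadapt 1.9.1, HISAT2 2.0.1, HTSeq 0.6.1, DESeq2 and hg19. The deposited table holds expected counts per gene, which are not all whole numbers, and TPM values. How the authors made these is not given in the sources used here. The authors' deposited fold (ratio), log2 fold change and p-values hold their own comparison and were not used. The table gives no coordinates. Of its 60623 identifiers, 58457 have a transcript sequence in GENCODE release 29, which supplied GRCh38 positions and transcripts.

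Counts were rounded, filtered with filterByExpr, scaled by TMM and tested with edgeR 4.0.16 (R 4.3.3), the group being the only term, with Benjamini-Hochberg adjustment over 14862 genes. SE was derived from the log2 fold change and its F statistic. The correction is a loess fit (span 0.5, genes averaging 100 counts or more) of each library on log2 deposited length and GC content, entered as an offset. The implied length was computed for genes with at least 200 counts. Ratios and shares used deposited TPM and exact permutation tests. DESeq2 1.42.0, other scalings and filters, a replicate block and leaving out each library were alternatives, and the TPM folds, the member levels per kilobase, the corrected list medians and the implied length were added after seeing the data. The scripts were tested on simulated data. No library was a copy of another (chi-square per degree of freedom 6.43 in control and 59.5 in CBX7 libraries). Named genes are the members, CBX7, listed genes past the adjusted threshold, the largest change in each list, and the 3 genes most like the member with the largest change. Members, lists and rules were chosen with earlier results of these data known. The level of a further listed gene, and sums that need it, are not reported here.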

Additional observations from a re-analysis of the deposited data

How the results depend on the processing

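Counting error of the members was at most 6.44%, and each group had 2 libraries. No member was called in any fit with all 4 libraries. Leaving out each library gave 0 to 4 members, 1 to 21 of the other PRC1 genes and 37 to 5474 of all genes. The 4 members (RING1, PCGF1, PCGF5 and RYBP) and the 5474 genes, 36.8% of those tested, were called without CBX7 replicate 2, when CBX7 replicate 1 alone stood for its group. Without CBX7 replicate 1 there were 4 other PRC1 genes and 388 of all genes. The 3 calls over all genes became 59 in the Wald test of DESeq2 with low counts kept (67 on the 14862 genes that edgeR tested, a fit added after seeing the data), 265 in edgeR when low counts were kept and 8 after the length and GC correction. With the replicate number as a block, the count was 361, and with block and correction 160, with 2 other PRC1 genes (CBX7 and BCOR) and 0 members. Whether the numbers pair the samples is not stated, and the deviations of same-numbered libraries correlated at 0.38 over all genes tested and at 0.62 over the 11077 genes averaging 100 counts or more. Signs turned, the members staying uncalled, for YAF2 with DESeq2's size factors (-0.0012), DESeq2's Wald test (-0.0023, or -0.0012 on the genes edgeR tested) and TPM (-0.41), for BMI1 (-0.028) and PCGF6 (-0.049) with TPM, and with the correction for RNF2 (0.022), PCGF1 (-0.0094) and RYBP (0.094), or, with the block added, 0.019, -0.0096 and 0.095. Leaving out each library gave ranges of 0.087 to 0.48 for RING1, -0.13 to -0.047 for RNF2, -0.11 to -0.025 for PCGF2, 0.022 to 0.085 for PCGF6, -0.074 to 0.38 for PCGF1, -0.063 to 0.052 for PCGF3, -0.022 to 0.12 for BMI1, -0.53 to 0.071 for PCGF5, -0.34 to 0.13 for RYBP and -0.068 to 0.082 for YAF2. The cause of these turns was not tested. The TPM ratios in control were 0.711, 0.948 and 0.445 for RNF2 to RING1, BMI1 to PCGF2 and RYBP to YAF2. In place of TPM, counts per kilobase of deposited length, corrected counts and counts per kilobase of the longest transcript gave control ratios of 0.501, 0.463 and 0.477 for RNF2 to RING1, 1.09, 1.05 and 1.13 for BMI1 to PCGF2, and 1.28, 1.25 and 1.57 for RYBP to YAF2. In CBX7 libraries RNF2 to RING1 was 0.392 and 0.373 by the uncorrected scales, BMI1 to PCGF2 1.23 corrected and 1.22 by the longest transcript, and RYBP to YAF2 1.21, 1.23 and 1.48. The log2 change of RYBP to YAF2, 0.19 in TPM, was -0.11, -0.035 and -0.11 by these scales, and -0.19 to 0.58 when each library was left out. That of BMI1 to PCGF2 then ran from -0.12 to 0.28. CBX7 per RING transcript was 19.7 with the correction and 19.7 by the longest transcript. Among the PCGF shares, the log2 change of PCGF1 was -0.011 with the correction, and that of PCGF3 was -0.0039 per kilobase and -0.056 with the correction. Leaving out each library gave -0.042 to 0.38 for the share of PCGF1, -0.12 to 0.064 for PCGF2, -0.0013 to 0.067 for PCGF3, -0.052 to 0.16 for BMI1, -0.33 to -0.062 for PCGF5 and 0.010 to 0.079 for PCGF6.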
